A study of Mus musculus with 15 samples.

Results

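Mouse embryonic stem cells that had been returned to serum after culture in 2i were compared with cells kept in 2i, by the genomic domains in which the histone variant H2A.X was listed as decreased. The comparison rests on 5 domain lists, chosen by the labelled culturing condition of their samples, out of 10 lists analysed here and 15 samples in the series. Cell lines 34, 35 and 37 each gave a 2i/LIF list. The condition 2i/LIF then Serum/LIF gave 2 lists, of lines 34 and 37, which are called the lists after the move. Lines 34 and 37 therefore have a list from each culture, and line 35 has a 2i/LIF list only. Together the 5 lists held 13736 domains of the 23031 in all lists.

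All cells were blastocyst-derived lines of the 129S6 X C57B6 strain background, male and female, with the sex of each line not given in the sources used here. 2i/LIF is a serum-free medium with leukaemia inhibitory factor (LIF), 1 µM PD0325901, which inhibits Mek, and 3 µM CHIR99021, which inhibits Gsk3. Serum/LIF contains fetal bovine serum and LIF and is used on irradiated feeder fibroblasts. The length of each culture period, and whether samples came from separate cultures, are not given, so p-values below reflect no more than the variation among these samples, possibly a technical one. DNA of feeder cells can be present in serum cultures. The lists carry no expression or cell markers, so neither the cell type nor the share of feeders could be checked, and their part in the results was not tested.

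H2A.X is a variant of histone H2A found throughout the genome, best known because its tail is phosphorylated around DNA double-strand breaks. Mek passes the Fgf signal to Erk, which prompts embryonic stem cells to leave the naive state, and inhibition of Gsk3 stabilises beta-catenin. Cells in 2i are known for a more uniform naive state and for low DNA methylation, and serum culture is known to raise methylation again. The series asks whether H2A.X deposition differs between such cultures. H2A.X was mapped by native ChIP-seq, in which nucleosomes from nuclease-digested, uncrosslinked chromatin are immunoprecipitated.

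Each domain has a chromosome, a start, an end and a score that the authors deposited. Starts and ends fall on a grid of bins of 1300 bp. No score was above the bin number of its domain, so the score per bin lay between 0.0864 and 1.00 in these lists and is used here only as the authors' description of a domain. By the names of the lists, a domain has less H2A.X than a control. The control is not identified in the sources used here, and a control that differed between the cultures could not be told apart from the culture itself. The lists hold domains on the 19 autosomes only and no read counts, so the depth behind them is unknown. The autosomal span, from the first to the last bin that any list covers, was 2412.2 Mb.

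Line 35 in 2i/LIF stood apart from the other 4 lists compared here by its width and its low score. It covered 78.2% of the span, with a median domain length of 362.7 kb. The 2i/LIF lists of lines 34 and 37 covered 34.6% and 44.8%, with medians of 191.1 and 221.0 kb. After the move the coverage was 42.4% in line 34 and 41.5% in line 37, and the medians were 289.3 and 175.5 kb. The lists after the move thus had nearly the same coverage, although they were divided into 1868 domains in line 34 and 2937 in line 37. Domains of 1 Mb or more held 25.9% of the covered length of line 34 in 2i/LIF and 51.2% after the move. Line 37 had 26.1% in 2i/LIF and 34.8% after the move, and in line 35 it was 52.4%. The mean share after the move was 43.0% ± 11.6 (SD, n = 2), and the 2i/LIF mean was 34.8% ± 15.2 (SD, n = 3). They differed by less than the spread (exact permutation p = 0.6, two-sided). With 2 lists against 3, an exact two-sided permutation test cannot give a p below 0.2, so no comparison of these groups can pass a threshold of 0.05.

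Net length hides a large turnover, and the lines differed in its balance. In line 34 the domains after the move left out 155.1 Mb of the 834 Mb covered in 2i/LIF, or 18.6%, and added 343.4 Mb, which was 33.6% of the length after the move. The net change was 188.3 Mb. In line 37 they left out 347.5 Mb of 1080.25 Mb, or 32.2%, and added 268.5 Mb, or 26.8% of the new total. Its net change was -78.9 Mb. Of all bins in the span, 6.43% were lost and 14.2% were new in line 34, and 14.4% were lost and 11.1% were new in line 37. Against all 2i/LIF lists the covered length was 255.0 Mb lower after the move (1012 ± 15.1 Mb, SD, n = 2, and 1267 ± 550 Mb, SD, n = 3; exact permutation p = 0.8, two-sided). Without the wide list of line 35 the difference was 54.7 Mb in the opposite direction, as it was with the line as a block.

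**Figure D1:**
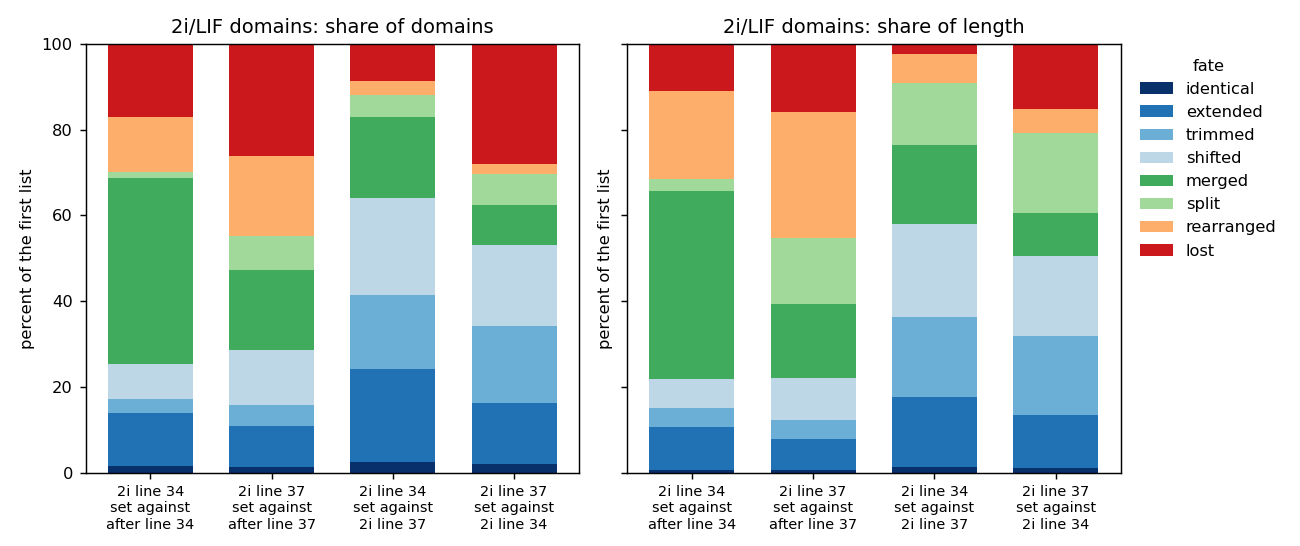
Fate of the 2i/LIF domains of lines 34 and 37, as percent of the domains (left) and of their length (right) in the first list named under each bar. The first 2 bars set each list against the list of the same line after the move, the other 2 compare lines 34 and 37 within 2i/LIF. Domains kept as 1 (blue shades) make up 25.2% and 28.5% in the first 2 bars and 64.2% and 53.0% in the other 2.

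Few domains came through the move as single, unbroken units. Domains of the lists of a line that shared at least 1 bin were joined, and each was given a fate. A domain that met a single domain in the other list was kept as 1, and is further called identical, extended, trimmed or shifted by where its ends lay. In line 34, 656 of 2600 2i/LIF domains (25.2%) were kept as 1, and in line 37 898 of 3147 (28.5%). The most frequent fate in line 34 was merging, with 1131 domains (43.5%) that ended in 401 domains after the move. Merging in line 37 took up 588 domains (18.7%), which ended in 249. Splitting went the other way: 37 domains of line 34 became 79, and 250 domains of line 37 became 587. Another 334 domains of line 34 (12.8%) and 592 of line 37 (18.8%) were rearranged, meaning that several domains met several. Merging was also found between lists of 1 culture. Set against the 2i/LIF list of line 35, 39.0% of the 2i/LIF domains of line 34 and 43.8% of those of line 37 merged. Between the 2i/LIF lists of lines 34 and 37, 18.8% of the domains of line 34 and 9.41% of those of line 37 did.

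A total of 442 domains of line 34 (17%) and 819 of line 37 (26.0%) had no shared bin after the move and are called lost. Lost domains held 92.2 Mb in line 34 and 172.2 Mb in line 37. In the lists after the move, 509 domains of line 34 (27.2%) and 598 of line 37 (20.4%) met no 2i/LIF domain of their line and are called new. The new domains were short and held 86.6 Mb in line 34 and 62.6 Mb in line 37.

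Merging in both lines closed gaps of similar size. The gaps between 2i/LIF domains that merged had a median of 88.4 kb in line 34 (730 gaps) and 84.5 kb in line 37 (339 gaps), and their quartiles were 53.3 and 157.3 kb and 54.6 and 154.1 kb. Most merging events joined only 2 domains, 233 of 401 in line 34 and 185 of 249 in line 37. The largest events joined 10 domains in line 34 and 7 in line 37. Gaps opened by splitting had a median of 72.8 kb in line 34 (42 gaps) and 62.4 kb in line 37 (337 gaps).

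Most new length was attached to older domains. In line 34, 33.8% of the new length filled the space between parts of 2i/LIF domains and 40.9% lay at 1 end of a 2i/LIF domain. The remaining 25.2% lay apart from any. In line 37 the shares were 32.2%, 44.6% and 23.1%. Lost length outside chromosomes 6 and 8, which are described separately below, lay apart more often and between parts less often than new length. There, 18.6% lay between parts that remained, 48.8% at 1 end and 32.6% apart in line 34, and 23.7%, 40.9% and 35.4% in line 37.

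The ends of domains were closer between lists of 1 culture than between lists of 1 line. Every pair of lists from 1 culture had more ends in the same bin than every pair across cultures. The 2i/LIF pairs shared 563 ends (lines 34 and 35), 585 (34 and 37) and 623 (35 and 37). The pair of lists after the move shared 563. The pairs of 1 line across the move shared 258 ends in line 34 and 284 in line 37, and the 4 pairs that differed in both line and culture shared 222 to 324. The mean was 583.5 within a culture and 275.7 across cultures, a difference of -307.8 (exact permutation p = 0.2, which is the smallest possible in this two-sided test). Across the move, lists of the same line did not share more ends than lists of different lines.

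The ends of domains kept as 1 also moved further across cultures than between lines. The median shift was 36.4 kb across the move in line 34 and 32.5 kb in line 37. Between lists of 1 culture it was 10.4, 11.7 and 13 kb in 2i/LIF and 13 kb after the move. Pairs that differed in line and culture had medians of 20.8 to 50.05 kb, so pairs within and across cultures did not overlap. The mean shift was 36.1 kb across cultures and 12.025 kb within them (difference 24.05 kb, exact permutation p = 0.2, two-sided), or 15.6 kb in difference without line 34 after the move. Ends displaced by over 100 kb made up 26.2% of those in line 34 and 23.6% in line 37, compared with 11.2% between the 2i/LIF lists of these lines and 6.74% between their lists after the move. The 2i/LIF list of line 35 gave values in between, with 17.6% against 2i/LIF line 34 and 17.2% against 2i/LIF line 37.

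More ends moved outward than inward, mainly in line 34. There 797 ends of domains kept as 1 lay further out after the move, 360 further in and 155 in the same bin. The median ratio of length after the move to length in 2i/LIF was 1.18 (quartiles 0.993 and 2.02). In line 37 the numbers were 939 outward, 676 inward and 181 in the same bin, and the median ratio was 1.03 (quartiles 0.739 and 1.43).

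The share of domains kept as 1, counted over the domains of both lists, gave the same order. It was 46.2%, 58.0% and 49.2% for the 2i/LIF pairs and 42.0% for the pair after the move. Across cultures it ran from 21.4% to 33.3%, with 29.4% in line 34 and 29.5% in line 37. The means were 27.2% across and 48.9% within cultures (difference -21.7 percentage points, exact permutation p = 0.2, two-sided). These 3 measures of pairs were chosen after seeing the data, and the unknown control of each list could move with the culture.

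Loss of whole domains separated the cultures less clearly than the ends did. On average 21.9% of the domains of a list had no shared bin with a list of the other culture, compared with 16.4% for lists of the same culture (difference 5.45 percentage points, exact permutation p = 0.2, two-sided). Without chromosomes 6 and 8 the means were 17.9% and 15.9%, so the gap was 2.04 percentage points (p = 0.4, exact permutation). The 2i/LIF list of line 37, for example, lost 29.5% of its domains outside chromosomes 6 and 8 when set against the 2i/LIF list of line 34, and 18.7% when set against its own line after the move. By the rule this share also depends on the width of the other list. Outside chromosomes 6 and 8 these lists covered 34.7% and 46.8%. Against the wide 2i/LIF list of line 35 the share was 1.71%.

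**Figure D2:**
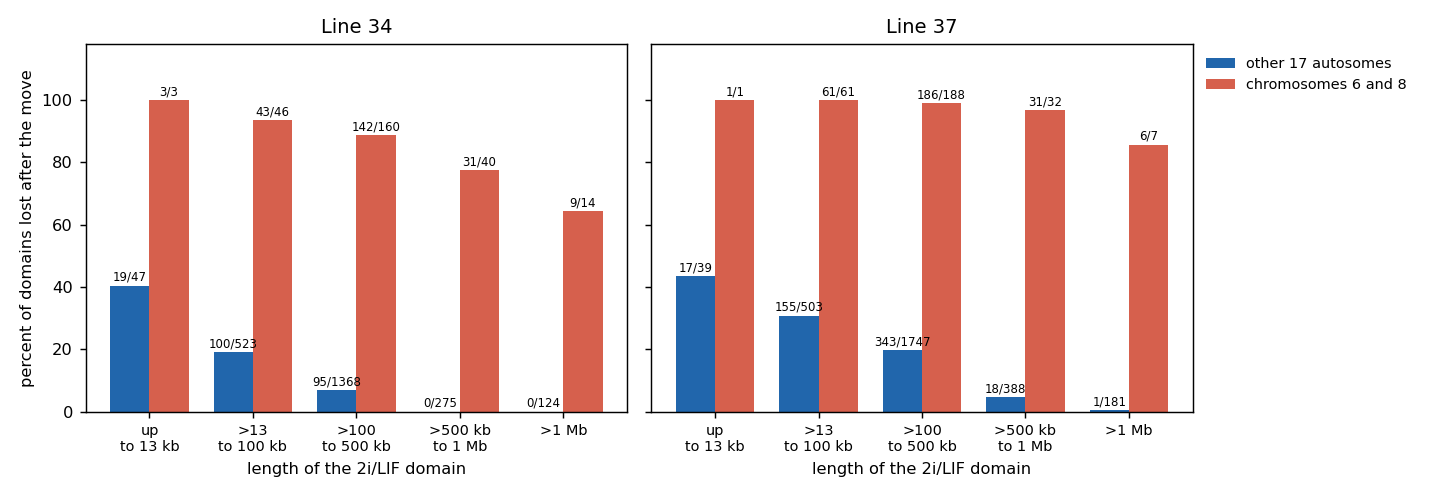
Percent of 2i/LIF domains with no shared bin after the move, by length of the domain, in lines 34 and 37. Numbers over the bars give lost domains and all domains of the class. On the other 17 autosomes the share goes down with length, to 0 of 124 and 1 of 181 domains over 1 Mb, whereas on chromosomes 6 and 8 9 of 14 and 6 of 7 such domains were lost.

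Outside chromosomes 6 and 8, short and weakly scored domains of the 2i/LIF lists were lost most often. In line 34, 19 of 47 domains of up to 13 kb were lost (40.4%), 100 of 523 of over 13 to 100 kb (19.1%), 95 of 1368 of over 100 to 500 kb (6.94%), and none of 275 of over 500 kb to 1 Mb or of 124 of over 1 Mb. In line 37 the same classes lost 17 of 39 (43.6%), 155 of 503 (30.8%) and 343 of 1747 (19.6%), followed by 18 of 388 of over 500 kb to 1 Mb (4.64%) and 1 of 181 of over 1 Mb. The order by length is in part set by the rule, because a longer domain can more easily share a bin with a list that covers 41.5% or more of the span, and that part was not tested. The shares stand against 9.16% of all domains outside chromosomes 6 and 8 in line 34 and 18.7% in line 37.

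The score of a domain in 2i/LIF sorted lost from remaining domains in the same way. In the lowest-scoring 25% of the list 113 of 584 domains of line 34 (19.3%) and 286 of 715 of line 37 (40.0%) were lost. In the highest-scoring 25% the numbers were 15 of 585 (2.56%) and 20 of 715 (2.80%). The difference was also present among domains of similar length: for those of over 100 to 500 kb, the median score per bin in 2i/LIF was 0.771 for lost and 0.874 for remaining domains in line 34, and 0.681 and 0.806 in line 37. Scores of domains in 1 list share their source, so these are descriptions without a test.

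New domains after the move were short and weakly scored as well. Outside chromosomes 6 and 8 their median length was 135.2 kb in line 34 and 82.6 kb in line 37, compared with 426.4 and 230.1 kb for domains that met a 2i/LIF domain. The rule of no shared bin favours short domains here as well, so the lengths are given as a description. Of the domains in the lowest-scoring 25% 47.8% were new in line 34 and 30.7% in line 37, and of those in the highest-scoring 25% 11.4% and 11.3%.

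**Figure D3:**
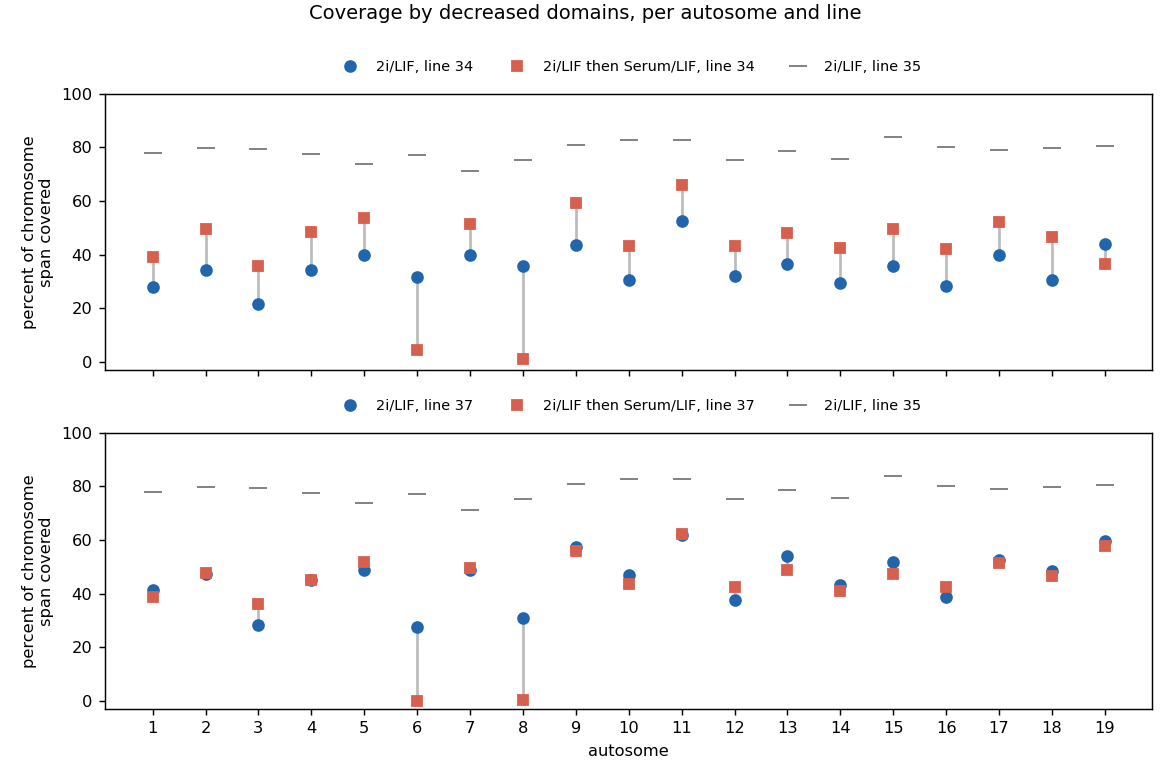
Percent of the span of each autosome covered by decreased domains in 2i/LIF (circles) and after the move to serum (squares), for line 34 (top) and line 37 (bottom), with 2i/LIF line 35 as dashes. Grey lines join the cultures of 1 line. Chromosomes 6 and 8 lie at 4.37% or less after the move in both lines, and in line 34 the other autosomes except chromosome 19 lie above their 2i/LIF value.

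By chromosome, the gain of line 34 was spread evenly while line 37 showed little net change. In line 34, 16 of the 17 autosomes other than 6 and 8 were covered more after the move, by 11.1 percentage points on chromosome 1 to 15.9 on chromosome 18. Chromosome 19 was the exception, at 44.1% in 2i/LIF and 36.5% after the move. In line 37, 7 of the 17 were covered more and 10 less, from -5.03 percentage points on chromosome 13 to 7.55 on chromosome 3. Their summed coverage was 46.81% in 2i/LIF and 46.83% after the move. In line 34 it was 34.7% in 2i/LIF and 47.5% after the move, so the lines differed in 2i/LIF and were alike after the move. Line 35 covered 78.5% of these 17 in 2i/LIF. The group means were 47.2% ± 0.460 (SD, n = 2) and 53.3% ± 22.6 (SD, n = 3) (gap -6.18 percentage points, p = 1 by two-sided exact permutation). Without line 35 the gap was 6.38.

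The even balance of line 37 came from turnover of equal size in both directions. On the other 17 autosomes 268.3 Mb were lost and 268.5 Mb were new. The lost share of length ran from 19.2% on chromosome 11 to 34.2% on chromosome 10, and the new share from 19.6% on chromosome 11 to 43.0% on chromosome 3. In line 34 the 17 lost 70.0 Mb and gained 342.4 Mb. The lost share ran from 3.45% on chromosome 5 to 14.2% on chromosome 3, apart from 33.8% on chromosome 19. The new share ran from 20.05% on chromosome 19 and 24.4% on chromosome 11 to 48.4% on chromosome 3. Chromosome 3 had the lowest coverage among the 17 in the 2i/LIF list of both lines, at 21.5% and 28.4%, and the highest new share in both. Chromosome 11, with the highest coverage in 2i/LIF of both lines (52.6% and 62.0%), had the smallest new share in line 37 and the smallest but for chromosome 19 in line 34. This order is in part set by the measure. The new share is taken of the length after the move, so low coverage in 2i/LIF raises it and high coverage lowers it. That part was not tested.

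Chromosomes 6 and 8 lost nearly all of their domains in both lines. In line 34, 228 of 263 domains (86.7%) were lost and in line 37 285 of 289 (98.6%). These compare with 17% and 26.0% of the domains of all chromosomes. By length, line 34 lost 88.4% of its coverage of chromosome 6 and 96.8% of chromosome 8, and line 37 lost 99.9% and 99.1%. Taken as 1 region, the 2 chromosomes had a mean coverage after the move of 1.51% ± 1.92 (SD, n = 2). The 2i/LIF mean was 46.2% ± 26.1 (SD, n = 3). Both lists after the move were below all 3 of 2i/LIF (difference -44.7 percentage points, exact permutation p = 0.2, which is the smallest possible in this two-sided test), or -29.7 without line 35. These chromosomes were singled out with earlier results of these data known, so the p-value is not independent evidence.

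Nearly all domains that remained on these chromosomes met 2i/LIF domains. In line 37 they were 1 domain on chromosome 6 (115893701 to 115945700, mm9, 52 kb) and 5 on chromosome 8, each of which lay wholly inside 2i/LIF domains. Of the 5, 4 lay between 123533801 and 124848100 on chromosome 8. Line 34 had 27 domains on chromosome 6 and 9 on chromosome 8, and 32 of the 36 met a 2i/LIF domain. Its longest was on chr6:71650801-73021000 (1370 kb). No end pair was identical to 2i/LIF in either line. Only 0.091 Mb of the 2 chromosomes, or 0.0331% of their span, was covered in all 4 lists of lines 34 and 37. On the other 17 it was 591.8 Mb, or 27.7% of their span.

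Here too long and high-scoring domains were lost less often, but loss was frequent in every class. On chromosomes 6 and 8 of line 34, 95.5% of the domains in the lowest-scoring 25% and 75.8% of those in the highest-scoring 25% were lost. The same shares of line 37 were 100% and 95.9%, and in the highest-scoring 25% of the other autosomes they were 2.56% and 2.80%. The lost bins had a 2i/LIF score per bin of 0.876 in line 34 and 0.792 in line 37. Both values lie between those of lost bins (0.803 and 0.714) and kept bins (0.889 and 0.826) of the other 17 autosomes. New length was 1.05 Mb in line 34 and 0 in line 37.

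**Figure D4:**
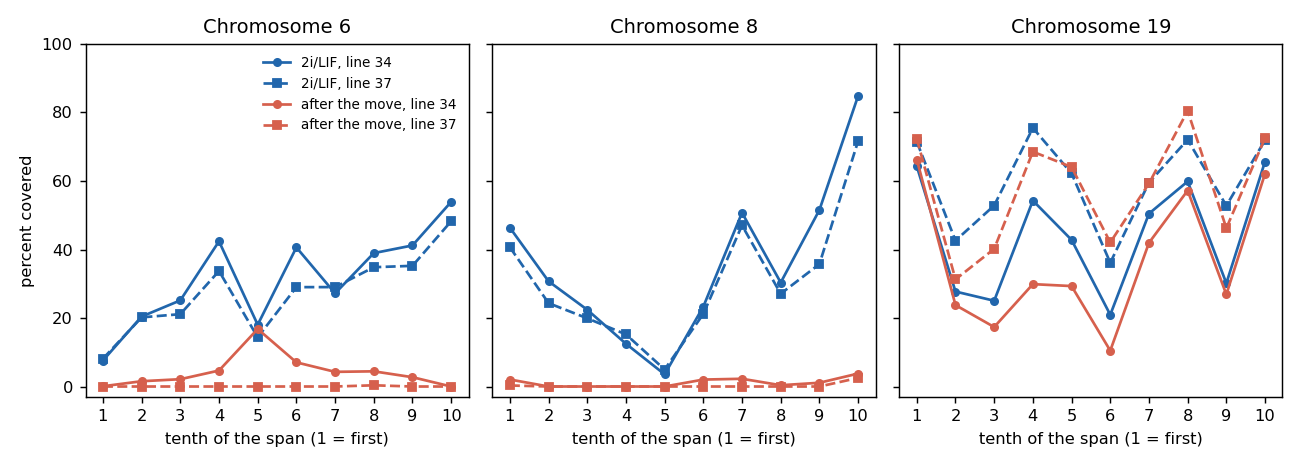
Percent covered in each of 10 equal parts of the span of chromosomes 6, 8 and 19, in 2i/LIF (blue) and after the move (red), for line 34 (circles, solid) and line 37 (squares, dashed). After the move no part of chromosome 6 or 8 exceeds 16.8%, and the values of line 34 in the fifth part of chromosome 6 differ little (18.04% and 16.8%).

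The loss extended along chromosomes 6 and 8, with 1 stretch of line 34 as the exception. When each chromosome was divided into 10 equal parts, coverage in 2i/LIF ran from 7.59% to 53.9% on chromosome 6 of line 34 and from 3.55% to 84.8% on its chromosome 8. After the move the fifth part of chromosome 6 was at 16.8%, compared with 18.04% in 2i/LIF, and its other parts were at 7.05% or less. The highest value of chromosome 8 was 3.78%, in its last part. In line 37 the highest values after the move were 0.355% and 2.50%. On chromosome 19 of line 34, coverage was lower in 9 of 10 parts, from 54.3% to 29.9% in the fourth part and from 20.9% to 10.5% in the sixth. The first part was at 64.3% in 2i/LIF and 66.3% after the move. In line 37 chromosome 19 was at 59.7% in 2i/LIF and 57.7% after the move, within the range of its other autosomes.

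**Figure D5:**
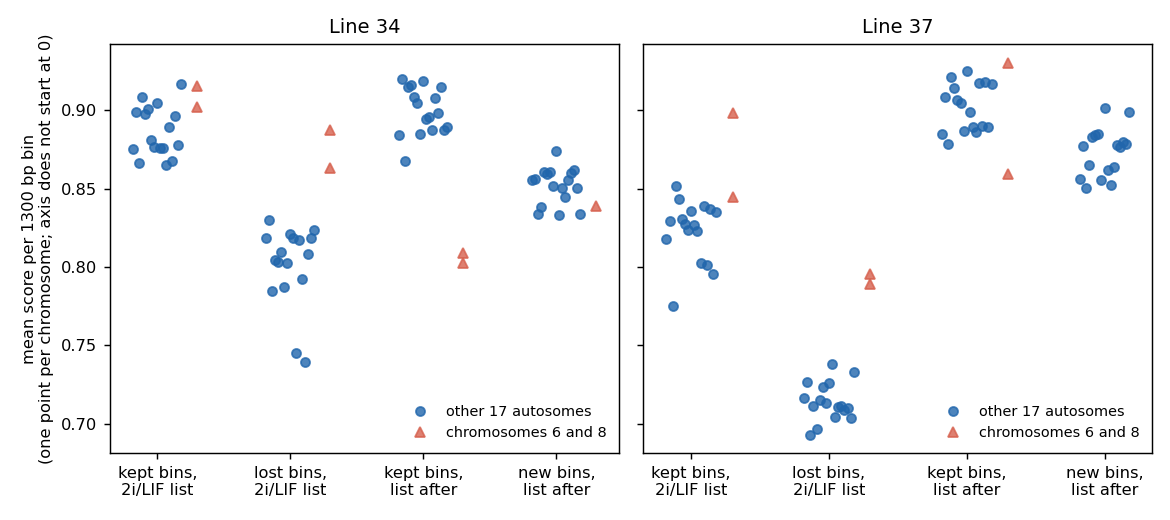
Mean score per 1300 bp bin of the covering domain, 1 point per chromosome, for bins kept in both cultures, lost or new, in line 34 (left) and line 37 (right). Scores are from the 2i/LIF list for the first 2 columns and from the list after the move for the others. On the 17 other autosomes lost and new bins score below kept bins in both lines, whereas lost bins of chromosomes 6 and 8 score above those of every other autosome.

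The mean score over all covered bins was higher after the move than in 2i/LIF, by a wide margin in line 37 and a narrow one in line 34. Over whole lists it was 0.880, 0.717 and 0.796 in 2i/LIF lines 34, 35 and 37, and 0.885 and 0.895 after the move in lines 34 and 37. The lists after the move were thus above all 2i/LIF lists (0.890 ± 0.0070, SD, n = 2, and 0.798 ± 0.0815, SD, n = 3; difference 0.0924, exact permutation p = 0.2, which is the smallest possible in this two-sided test). Without line 35 the difference was 0.0522. Within a line it was 0.0050 in line 34 and 0.0994 in line 37. The median over domains, which gives long domains no extra weight, went down in line 34, from 0.870 in 2i/LIF to 0.862 after the move. In line 37 it went up from 0.793 to 0.874. Over the 9 comparisons of list values made here the lowest p adjusted by Benjamini and Hochberg was 0.6 (exact permutation tests).

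On average, bins covered in both cultures were scored higher after the move, by 0.0132 in line 34 and 0.0778 in line 37. Over bins covered in both cultures of a line, the score per bin of the covering domain was 0.889 in 2i/LIF and 0.902 after the move in line 34, and 0.826 and 0.904 in line 37. The score was higher in 55.8% of these bins in line 34 and 88.1% in line 37. By chromosome, all 17 autosomes other than 6 and 8 were higher in line 37, from 0.0635 on chromosome 10 to 0.103 on chromosome 3. In line 34, 16 of 17 were higher, from 0.0011 on chromosome 3 to 0.0303 on chromosome 16, and chromosome 19 was at -0.0276. On chromosomes 6 and 8 of line 34 the bins that remained were scored lower after the move, at 0.804 compared with 0.905. In line 37 the bins that remained there, 0.412 Mb, had 0.868 after the move and 0.892 in 2i/LIF.

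Lost bins had been scored lower in 2i/LIF than kept bins on all 17 other autosomes of both lines. The means were 0.803 for lost and 0.889 for kept bins in line 34, and 0.714 and 0.826 in line 37. New bins were also scored lower than kept bins in the list after the move on all 17, at 0.852 compared with 0.903 in line 34 and 0.871 compared with 0.904 in line 37.

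New length was shared between the lines throughout the other 17 autosomes, whereas shared loss lay mostly on chromosomes 6 and 8. Bins new in both lines made up 177.5 Mb, or 7.36% of the span, which was 51.7% of the new length of line 34 and 66.1% of that of line 37. None of it was on chromosomes 6 or 8, and it was spread over the other 17, at 8.30% of their span. It took up 15.7 of 156.6 Mb on chromosome 3, 14.9 of 178.7 Mb on chromosome 2 and 2.92 of 58.2 Mb on chromosome 19. Bins lost in both lines made up 97.5 Mb, or 4.04% of the span. This was 62.8% of the lost length of line 34 and 28.1% of that of line 37, but 64.6 Mb of it lay on chromosomes 6 and 8. On the other 17 autosomes 32.9 Mb were lost in both, or 47.0% of the loss of line 34 and 12.3% of that of line 37. The comparisons of lines 34 and 37 share no sample among those labelled, but an unnamed control may be common to them.

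Part of the difference between the lines was already there in 2i/LIF. Of the 165.9 Mb new in line 34 but not in line 37, 64.1% was already in the 2i/LIF list of line 37. Of the 91.0 Mb new in line 37 but not in line 34, 58.9% was in the 2i/LIF list of line 34. Of the 250.0 Mb lost in line 37 but not in line 34, 12.6% had been in the 2i/LIF list of line 34. Leaving out bins new or lost in both lines raises the first 2 shares and lowers the last by rule. The 2i/LIF list of line 37 held 30.9% of all new bins of line 34, and 18.02% of bins in neither list of line 34. That of line 34 held 19.96% of all new bins of line 37, and 2.76% of bins in neither list of line 37. It also held 37.1% of all lost bins of line 37. After the move, the list of line 37 covered 76.0% of the new bins of line 34, 94.7% of its kept bins and 5.20% of bins in neither of its lists. The list of line 34 after the move covered 85.2%, 92.2% and 6.04% of the same bins of line 37. Over the whole span, which includes 2i/LIF domains that new bins leave out by definition, these lists covered 41.5% (line 37) and 42.4% (line 34).

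The 2i/LIF list of line 35, which had no part in choosing these bins, covered less of the new places than of other places outside the 2i/LIF lists of lines 34 and 37. It covered 39.8% of the length new in both lines and 66.7% of the length in none of the 4 lists of these lines. The 78.2% of the span is no fair measure here, because line 35 covered 98.6% of the length in both of those 2i/LIF lists, which new bins leave out by definition. In line 34 it covered 55.8% of new bins and 72.0% of bins in neither list of the line, and in line 37 49.7% and 65.6%. By contrast it covered 96.6% of kept and 96.6% of lost bins of line 34, and 97.6% and 98.0% of those of line 37. A total of 106.8 Mb, 4.43% of the span, was covered in each list after the move but not in 2i/LIF, and 96.4 Mb, 3.996% of the span, was covered 3 times in 2i/LIF and never after the move.

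The Serum/LIF lists from cells without a labelled 2i period covered the new places to different extents. The cultures titled XS (lines 30, 31 and 32) covered 24.8%, 48.5% and 7.95% of the length new in both lines, and 23.5%, 64.0% and 34.9% of all length in neither 2i/LIF list of lines 34 and 37. The Serum/LIF list titled S of line 37 covered 0.154% of the former and 0.555% of the latter, but it held only 130 domains over 0.381% of the span. The S list of line 35 held 26 domains over 0.0382% of the span, and covered 0.0132% and 0.0647%. Lists this small say little about the new places. Of the length lost in both lines on chromosomes 6 and 8 the XS lists covered 58.9%, 85.5% and 27.1%, and of all length in both 2i/LIF lists there 61.2%, 86.2% and 29.1%. On the other 17 autosomes they covered 11.2%, 69.4% and 5.10% of the length lost in both lines, and 64.5%, 87.4% and 29.4% of the length in both 2i/LIF lists.

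The longest stretches new in both lines were all shorter than 1 Mb. They were on chr14:24148801-24810500 (661.7 kb, mm9), chr10:118895401-119548000 (652.6 kb), chr9:28661101-29265600 (604.5 kb), chr13:11800101-12361700 (561.6 kb) and chr7:103335701-103841400 (505.7 kb). Line 35 in 2i/LIF did not cover the stretch on chromosome 10 and covered 9.25% to 18.9% of the other 4. The scores per bin after the move were 0.867 to 0.952 in line 34 and 0.845 to 0.967 in line 37. Longer new domains met parts of other lists. The longest new domain of line 34, on chr4:64771201-65703300 (932.1 kb), was covered over 82.7% by 2i/LIF line 35 and 21.6% by 2i/LIF line 37. That of line 37, on chr15:72417801-73087300 (669.5 kb), was covered over 29.9% by 2i/LIF line 34 and 35.9% by line 35.

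The 5 longest stretches lost in both lines were on chromosomes 6 and 8, and the longest elsewhere were several times shorter. After the stretch on chr8:120170701-122405400 (2.23 Mb), which was also the longest lost domain of line 37, came chr6:134858101-136458400 (1.60 Mb). Then followed chr8:89277501-90607400 (1.33 Mb), chr6:31466501-32680700 (1.21 Mb) and chr8:91278201-92419600 (1.14 Mb). Their 2i/LIF scores per bin were 0.828 to 0.963 in line 34 and 0.722 to 0.879 in line 37, and line 35 covered at least 96.6% of each. The second of them lay in the longest lost domain of line 34 (134739801 to 136468800). The longest trimmed domain of line 34 was a 6.18 Mb domain on chromosome 8 (119255501 to 125437000), of which 7.11% was covered after the move.

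Outside these chromosomes the longest stretches lost in both lines were on chr13:101609301-101977200 (367.9 kb), chr19:52669501-52995800 (326.3 kb), chr14:105946101-106245100 (299.0 kb), chr15:95248401-95505800 (257.4 kb) and chr14:100682401-100934600 (252.2 kb). All were fully covered in 2i/LIF line 35. Their 2i/LIF scores per bin were 0.638 to 0.835 in line 34 and 0.670 to 0.840 in line 37.

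Several long stretches outside chromosomes 6 and 8 were covered in both cultures of both lines. The longest stretch in all 4 lists was on chr4:151232901-154869000 (3.64 Mb), and in line 37 this was a domain with the same ends in 2i/LIF and after the move. In line 34 after the move it lay inside a merged domain of 8.41 Mb (147218501 to 155629500), 91.5% of which had been covered in 2i/LIF. The next longest were on chr15:77577501-80542800 (2.97 Mb), chr7:51339601-53705600 (2.37 Mb), chr5:119362101-121589000 (2.23 Mb) and chr5:111818201-113951500 (2.13 Mb). Line 35 covered at least 99.9% of each. Their scores per bin were 0.931 to 0.986 in 2i/LIF line 34, 0.915 to 0.955 in line 37, and 0.942 to 0.985 in the lists after the move.

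The longest rearranged, split, shifted and trimmed 2i/LIF domains outside chromosomes 6 and 8 kept between 75.5% and 99.9% of their length. The longest 2i/LIF domain of line 34, on chr2:166764001-173904900 (7.14 Mb), was still covered over 96.8%, and that of line 37, from 168062701 to 173439500 on the same chromosome (5.38 Mb), over 99.1%. The longest split domain of line 34, on chr11:54597401-55892200 (1.29 Mb), kept 97.9%, and that of line 37, on chr14:54115101-57028400 (2.91 Mb), kept 75.5%. The longest merged domain of line 37, on chr4:137680401-142027600 (4.35 Mb), had been covered over 94.4% in 2i/LIF. The longest extended domains of both lines were the same place on chr10:78980201-81118700 in 2i/LIF line 34 and from 79036101 to 81123900 in 2i/LIF line 37. The longest shifted domains, on chromosome 4 in line 34 (126803301 to 128841700) and chromosome 15 in line 37 (77574901 to 80562300), kept 99.7% and 99.9%. The longest trimmed domain of line 37, on chr15:73251101-74915100, kept 95.5%.

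Domains with both ends unmoved were rare and mostly very short. There were 42 in line 34 and 40 in line 37, of which 17 were identical in all 4 lists, with a median length of 1.3 kb, the length of a single bin. The longest of the 17 was on chr14:25534601-26694200 (1160 kb), with scores per bin of 0.921 to 0.987 in the 4 lists. It was also the longest identical domain of line 34. It was followed by domains on chr17:7339801-7540000 (200.2 kb), chr5:128867701-129001600 (133.9 kb), chr12:18822701-18840900 (18.2 kb) and chr2:174878601-174894200 (15.6 kb). The last pair had scores per bin of only 0.127 to 0.262. No gene was assigned to any region, because the gene table at hand is of another genome build.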

How the data were processed

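Native ChIP-seq of H2A.X reads went through Bowtie2 2.0.6 and mm9 is the build, both per the submitters' processing notes. Neither the caller of the domains nor its control is given in the sources used here. The authors deposited lists of decreased domains, each of a single sample and with a score per domain; 10 lists, all of H2A.X immunoprecipitates, were analysed here. The state column names a sample as enriched, and the direction was taken from the names of the lists. Columns 1 to 3 and 6 were used. Coordinates are 1-based, in mm9. Depth is unknown, so no counting interval is given. The 15 samples were 11 H2A.X immunoprecipitates, 3 inputs and 1 IgG control.

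Lists were placed on the 1300 bp grid, and the fate of each domain was set by at least 1 shared bin. The score per bin is the summed score over the summed bins. Single values were compared by two-sided exact permutation over the 10 relabellings of the 5 lists, adjusted by Benjamini-Hochberg over 9 comparisons. Titles number the cell lines, and lists of 1 number were treated as 1 line, which pairs them across cultures. To check the pairing, shared ends were counted: lists of the same number shared 258 and 284 ends, within the 222 to 324 of lists of different number. The regions named were, by rule, the 5 longest stretches lost in both lines (also outside chromosomes 6 and 8), new in both, or in all 4 lists, the longest domain of each fate per line, and the 5 longest identical domains. The members and lists were chosen with earlier results of these data known. The gene table is of GRCm38.p6: 16 domains on chromosome 1 end beyond its last gene end at 195291439, so its coordinates and sequences were not used. The fate caller was tested on simulated data. Alternatives were an overlap of at least 50%, only the 50% of domains with the higher score per bin, closing of gaps under 10 kb, only domains of 10 kb or more, medians on a log10 scale, omission of chromosomes or of each list, and the line as a block. Python 3.11.15, numpy 2.4.6, pandas 2.3.3 and matplotlib 3.10.9 were used.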

Additional observations from a re-analysis of the deposited data

Results flagged for a closer look

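Lines 34 and 37 moved in opposite directions after the return to serum in covered length, by 188.3 Mb and -78.9 Mb, and in median domain length, by 98.15 kb and -45.5 kb. Each line has 1 list per culture, so the difference between the lines was not tested.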

How the results depend on the processing

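With at most 2 lists against 3, no exact permutation p was below 0.2 under any setting, so only directions and sizes can change. With the line as a replicate block, the covered length was 54.7 Mb higher after the move, the median domain length 26.3 kb higher and the coverage of the other 17 autosomes 6.38 percentage points higher, each the opposite of the unpaired value. The same 3 turned with the higher-scoring 50% of each list, to 34.8 Mb, 81.9 kb and 4.62 percentage points. Leaving out each list in turn gave -471 to 54.7 Mb, -82.8 to 30.98 kb and -15.5 to 6.38 percentage points; the opposite sign came without 2i/LIF line 35 and, for the median length, also without line 37 after the move. The lowest values came without 2i/LIF line 34 for the first and last, and without line 34 after the move for the median length. The number of domains was -574.5 after the move, with -1109 without line 37 after the move and -40 without line 34 after the move. The block turned no other direction. The mean share of 2i/LIF domains lost, 21.5%, was 31.4% in the higher-scoring 50%, 13.9% without chromosomes 6 and 8 and 13.6% without chromosomes 6, 8 and 19, the last chosen after seeing the data. The new share of length, 30.2%, was 42.1% in the higher-scoring 50%, and the share of domains kept as 1, 26.9%, was 32.3% with an overlap of at least 50%. The share of lost length common to both lines was 40.6% of line 34 and 28.9% of line 37 in the higher-scoring 50%, and 47.0% and 12.3% without chromosomes 6 and 8. The share of new length common to both was 43.9% and 51.3% in the higher-scoring 50%. The cause of these shifts was not tested. Of 140 alternative values for 19 results, 10 changed direction. Another 11, all of them shares, moved beyond the spread over the lines or the interval of the share. That interval, used for the shares common to both lines, is a binomial one that counts each 1300 bp bin as independent. Neighbouring bins of a domain are not independent, so it is too narrow and its calls of moved or same carry little weight. The remaining 119 were counted as the same, most differences by direction alone, and many of these changed in size. For values averaged over lines 34 and 37, leaving out either line was bound to count as the same. Each of 2 values always lies within their SD of the mean, so those cases are no check. Joining domains gives no score values, since the score of a joined domain is undefined, and leaving out a line gives no share common to both lines.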
